A study of Mus musculus with 18 samples.

Results

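The genes described are Ppara, which encodes the nuclear receptor PPARA, and a set of enzymes of fatty acid oxidation that are textbook targets of it in rodent liver. They were picked by symbol: Acot3, Acot4, Acaa1b, Acaa2, Ehhadh, Cpt1a, Hadha and Vnn1 beside Ppara, 9 symbols in all. Values were read for 8 of them, out of 23930 genes listed, and Acot4 was not analysed here. The RNA came from whole livers of Yap fl/fl mice that had been given an adeno-associated virus (AAV) at 8 weeks of age and were moved to liquid diet 2 weeks later. AAV-TBG-Cre (0.5 × 10¹¹ genome copies per mouse) gave the Yap KO mice, AAV-TBG-YAP-P2A-EGFP (2 × 10¹¹) the YAP OE mice and AAV-TBG-GFP (2 × 10¹¹) the controls, so the dose of virus in Yap KO mice differed from that in controls. TBG is a promoter active in hepatocytes, so that other cells of the liver kept their Yap alleles. After 5 days of acclimation the mice of each genotype received a Lieber-DeCarli diet with ethanol for 4 weeks and, 9 hours before death, a single ethanol gavage (33% v/v, 5 g/kg), while pair-fed mice had the control diet and a maltose-dextrin gavage. Each of the 6 groups had 3 libraries.

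PPARA is switched on by fatty acids and binds DNA together with a retinoid X receptor, at paired hexamers spaced by 1 base. Its targets in the liver act in series: CPT1A makes the acylcarnitines that carry long-chain fatty acids into mitochondria, and the trifunctional protein, whose alpha subunit is HADHA, and the thiolase ACAA2 shorten them there. EHHADH and the thiolase ACAA1B do the matching steps in peroxisomes, which handle very long-chain and dicarboxylic acids, and ACOT3 is a peroxisomal thioesterase of the mouse that frees fatty acids from coenzyme A. VNN1 is a pantetheinase, an enzyme that recycles a precursor of coenzyme A. The pathway is a standard subject in alcoholic liver injury, where fat accumulates in hepatocytes.

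The 250 bases upstream of the transcription start (RefSeq, build GRCm38.p6) are shown for the 5 members whose ranges in pair-fed YAP OE and pair-fed control livers did not overlap, apart from Acaa2. They lie at chr15:85735526-85735775 on the + strand (Ppara), chr12:84051894-84052143 on the + strand (Acot3, the first of its 2 listed starts), chr9:119157094-119157343 on the - strand (Acaa1b), chr16:21787835-21788084 on the - strand (Ehhadh) and chr19:3323051-3323300 on the + strand (Cpt1a). Capitals mark GGAATG, the core of the site of TEAD factors through which YAP acts on DNA, and AGGTCA, a single receptor hexamer, each on either strand. Ppara, Acaa1b and Cpt1a were higher in each pair-fed YAP OE library than in each pair-fed control library, and Acot3 and Ehhadh were lower. Of all genes tested 13.8% had ranges apart in this comparison. None of the members' differences had an adjusted p under 0.05 (limma, the lowest 0.0827).
Ppara: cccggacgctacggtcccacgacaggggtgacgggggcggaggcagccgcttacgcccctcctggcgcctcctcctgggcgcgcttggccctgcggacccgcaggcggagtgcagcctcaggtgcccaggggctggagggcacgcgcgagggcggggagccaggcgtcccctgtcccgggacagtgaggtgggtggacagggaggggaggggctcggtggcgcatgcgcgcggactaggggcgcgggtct
Acaa1b: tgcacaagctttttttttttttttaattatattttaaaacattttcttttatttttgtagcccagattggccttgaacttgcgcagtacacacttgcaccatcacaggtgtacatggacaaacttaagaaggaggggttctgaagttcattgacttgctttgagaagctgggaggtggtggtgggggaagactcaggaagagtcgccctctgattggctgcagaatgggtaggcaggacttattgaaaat
Cpt1a: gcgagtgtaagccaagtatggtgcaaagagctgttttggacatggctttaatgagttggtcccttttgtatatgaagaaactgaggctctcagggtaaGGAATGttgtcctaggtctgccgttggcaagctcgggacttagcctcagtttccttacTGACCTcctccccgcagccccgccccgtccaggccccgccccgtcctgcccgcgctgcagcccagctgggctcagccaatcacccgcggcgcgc
Acot3: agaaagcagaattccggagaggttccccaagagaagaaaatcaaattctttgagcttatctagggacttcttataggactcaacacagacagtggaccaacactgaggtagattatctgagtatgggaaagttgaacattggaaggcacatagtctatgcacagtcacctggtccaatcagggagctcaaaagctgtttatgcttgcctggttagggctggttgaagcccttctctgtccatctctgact
Ehhadh: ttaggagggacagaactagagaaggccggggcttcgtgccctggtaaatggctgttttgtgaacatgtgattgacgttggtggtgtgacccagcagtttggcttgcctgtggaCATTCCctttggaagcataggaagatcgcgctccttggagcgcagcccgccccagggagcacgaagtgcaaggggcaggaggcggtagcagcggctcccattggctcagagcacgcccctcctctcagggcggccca
GGAATG stood once in the windows of Ehhadh and Cpt1a, and 12.6% of 32817 mouse promoters of the same length hold it. AGGTCA stood once, in the window of Cpt1a, against 14.0% of all promoters. The paired site AGGTCANAGGTCA (N is any base) was searched on both strands in the windows of 6 members, Hadha included. The closest run of each had 4 mismatches, while 21.3% of all promoters hold a run with at most 3 and 0.0335% an exact one. Where no match was found, only these letters are missing from this window.

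Library totals were 4.68 to 5.81 M reads with a median of 5.47 M. Reads were found for 54.2 to 57.7% of genes. The panel reads 1 amplicon per gene, and levels are in CPM (reads of a gene relative to all reads of its library), where 1 read equalled 0.172 to 0.214 CPM. The lowest count of any member in any library was 35 reads, of Acot3. The deleted gene Yap1 stood at 3.34 to 5.08 CPM in ethanol-fed and 4.18 to 15.1 CPM in pair-fed Yap KO livers, against 51.5 to 66.6 CPM in the control libraries. In YAP OE livers it stood at 106.4 to 143.7 CPM with ethanol and at 57.6, 154.6 and 214.1 CPM with pair-feeding, so that replicate 1 of pair-fed YAP OE was at the level of the controls. Xist was above Ddx3y in 5 libraries, all 3 of pair-fed Yap KO and replicates 2 and 3 of pair-fed control (Xist at 347.8 to 423.2 CPM), and Ddx3y above Xist in the other 13. Ethanol and these genes of the sex chromosomes therefore cannot be told apart in Yap KO livers. All ethanol-fed and all YAP OE libraries were of the kind with Ddx3y above Xist. Of the 5 hepatocyte markers listed 4 were analysed, and their summed level was 36690 to 77880 CPM. Of the 4 adipocyte markers Adipoq and Lep had no read in any library, which allows up to 0.517 to 0.641 CPM (3 reads, counting error only).

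Ethanol went with lower levels of most of these genes in each genotype. In Yap KO livers Acot3, Ehhadh, Ppara and Acaa2 were lower with ethanol, in YAP OE livers Acaa1b, and in control livers Acaa2. No member was called higher with ethanol. A gene was called at an adjusted p under 0.05 over all 11720 genes tested (limma on log2(CPM + 1), a scale that understates the change of low genes), and all 8 members passed the filter on low values. Called members were 4 of 8 in Yap KO livers, where 9.9% of all genes were called, 1 of 8 in YAP OE livers (1.15% of all genes) and 1 of 8 in control livers (2.7%). The log2 difference was negative for 8, 7 and 7 of the 8 members in Yap KO, YAP OE and control livers, with medians of -0.85, -0.59 and -0.35 beside medians over all genes of -0.05, -0.07 and -0.09. The ethanol-fed libraries lay below all pair-fed ones for 5 members in Yap KO livers, where 28.5% of all genes had ranges that did not overlap in either direction, for 4 in YAP OE livers (22.4%) and for 4 in control livers (22.1%). Since the labels do not say that each library is a separate animal, p-values measure the spread between libraries, and fewer cells of a type cannot be told apart from less RNA per cell.

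**Figure D1:**
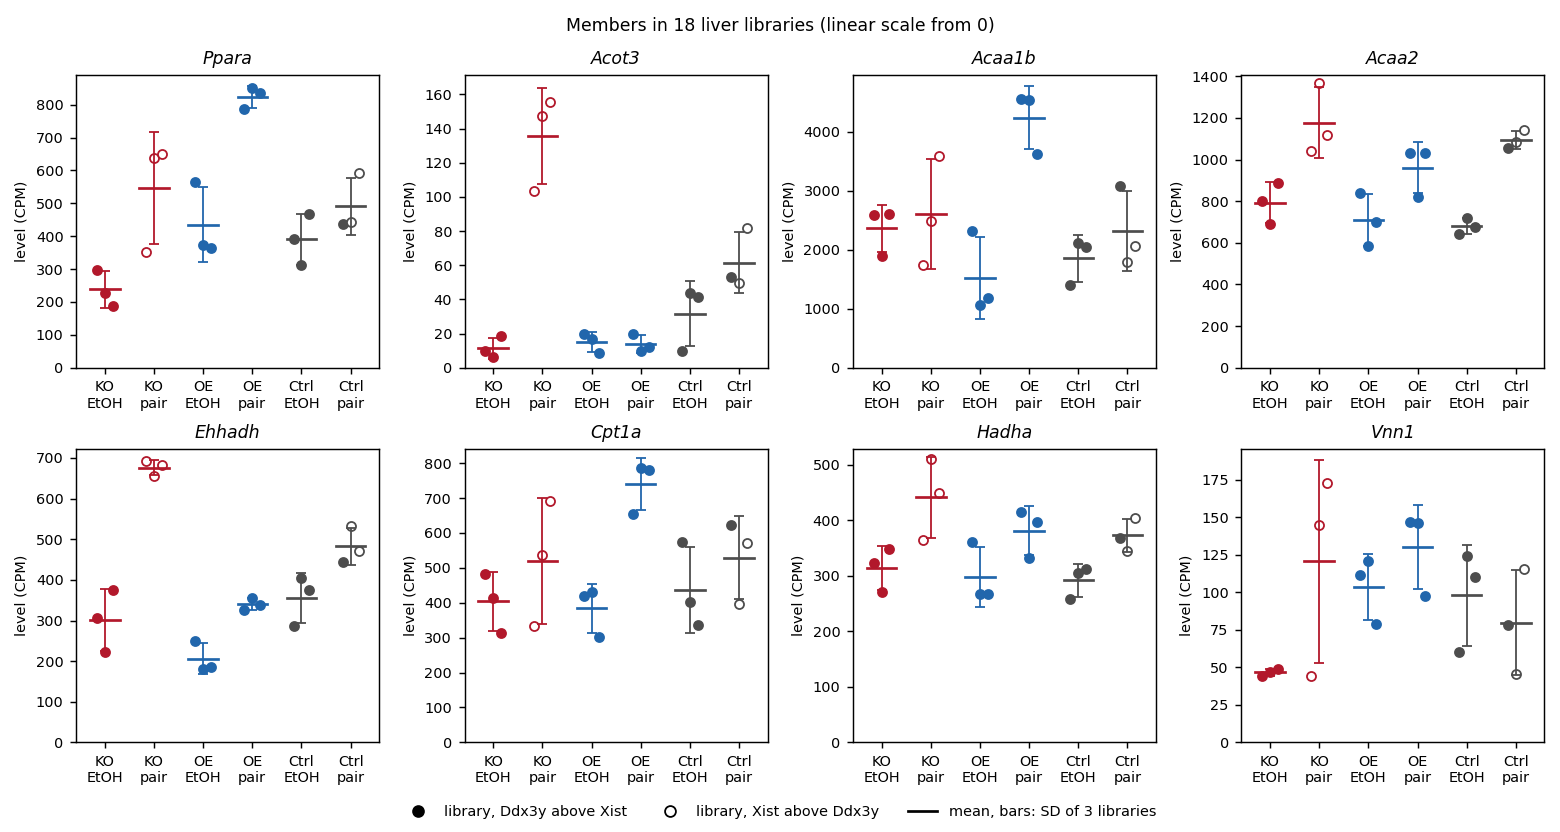
Levels of the 8 members in CPM on linear axes from 0, in ethanol-fed (EtOH) and pair-fed libraries of Yap KO (red), YAP OE (blue) and control (grey) livers, with the mean and SD of 3 libraries; open points are libraries with Xist above Ddx3y. Acot3 was above 100 CPM in pair-fed Yap KO livers alone, and Ppara, Acaa1b, Cpt1a and Vnn1 had their highest mean in pair-fed YAP OE livers.

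The receptor gene itself was at 298.5, 228.0 and 188.9 CPM in ethanol-fed Yap KO livers, against 351.9, 638.7 and 650.2 CPM in pair-fed ones. All 3 ethanol-fed libraries were below the lowest pair-fed one, and Ppara was lower by 1.17 ± 0.24 on the log2 scale (difference -1.17 ± 0.24 SE, adjusted p = 0.00582). In YAP OE livers Ppara stood at 566.2, 373.0 and 364.6 CPM with ethanol and at 786.6, 850.9 and 836.0 CPM with pair-feeding. These ranges did not overlap either, but the difference of -0.95 ± 0.24 missed the threshold (adjusted p = 0.0574). A limma fit of the 13 libraries with Ddx3y above Xist called the same difference (adjusted p = 0.0377). That fit held the same YAP OE libraries, so only the estimate of the spread and the adjustment changed. Without replicate 1 of pair-fed YAP OE the difference was -0.99 (adjusted p = 0.135). Control livers had 391.9, 312.3 and 466.7 CPM with ethanol and 438.2, 444.0 and 591.5 CPM with pair-feeding, ranges that overlapped (difference -0.34 ± 0.24, adjusted p = 0.503). In the order of the group means, pair-fed YAP OE (824.5 ± 33.7 CPM, SD, n = 3) stood apart at the top and ethanol-fed Yap KO (238.5 ± 55.6 CPM, n = 3) apart at the bottom, and the 4 groups between overlapped from each to the next.

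Cpt1a, the gate of mitochondrial import, had 418.7, 429.9 and 302.4 CPM in ethanol-fed YAP OE livers, against 653.0, 785.2 and 780.3 CPM in pair-fed ones. The ranges were apart, with a difference of -0.96 ± 0.26 that was not called (adjusted p = 0.0755). A limma fit of the 13 libraries with Ddx3y above Xist gave an adjusted p of 0.0419. It held the same YAP OE libraries, and only the estimate of the spread and the adjustment changed. Yap KO livers gave 483.0, 414.7 and 314.4 CPM with ethanol and 332.7, 537.2 and 691.1 CPM with pair-feeding, and control livers 572.8, 403.0 and 335.4 CPM with ethanol and 622.5, 396.0 and 570.7 CPM with pair-feeding. In both of these the groups overlapped, and the 95% intervals of the log2 difference ran from -0.87 to 0.22 in Yap KO and from -0.83 to 0.26 in control livers.

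Acaa2, the mitochondrial thiolase of the last step of the cycle, was the only member called with ethanol in more than 1 genotype. It had 798.6, 690.1 and 888.4 CPM in ethanol-fed Yap KO livers, against 1042, 1369 and 1120 CPM in pair-fed ones. Control livers had 642.8, 719.6 and 673.7 CPM with ethanol and 1056, 1082 and 1143 CPM with pair-feeding. All ethanol-fed libraries of both genotypes lay below all pair-fed ones, by -0.57 ± 0.17 (adjusted p = 0.0437) in Yap KO and -0.69 ± 0.17 (adjusted p = 0.0388) in control livers, and both calls were close to the threshold. The Yap KO call was lost in 11 of 17 other settings and the control call in 13 of 18, the loss of any 1 control library among them, while the log2 difference stayed between -0.65 and -0.45 and between -0.73 and -0.59. YAP OE livers had 837.1, 586.7 and 700.8 CPM with ethanol and 1031, 818.0 and 1030 CPM with pair-feeding, which overlapped in 1 library of each (difference -0.44 ± 0.17, adjusted p = 0.234).

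Hadha, of the trifunctional protein, was the member that varied least between groups, with 1.51 times between its highest and lowest group means. It had 323.3, 270.7 and 348.7 CPM in ethanol-fed Yap KO livers, against 364.4, 510.5 and 448.5 CPM in pair-fed ones, apart by -0.48 ± 0.17 (adjusted p = 0.0827). In YAP OE livers it ranged over 267.0 to 360.2 CPM with ethanol and 332.0 to 415.7 CPM with pair-feeding, and in control livers over 257.6 to 312.0 and 345.4 to 404.9 CPM. The difference was -0.36 ± 0.17 in YAP OE and -0.35 ± 0.17 in control livers, and neither was called (adjusted p = 0.345 and 0.288).

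Ehhadh, the peroxisomal bifunctional enzyme, was lower in ethanol-fed than in pair-fed libraries of every genotype without overlap. Ranges were apart in either direction for 28.5% of all genes in Yap KO, 22.4% in YAP OE and 22.1% in control livers. In Yap KO livers it had 305.9, 223.6 and 375.1 CPM with ethanol, against 691.5, 654.9 and 682.2 CPM with pair-feeding (difference -1.19 ± 0.19, adjusted p = 0.000862). YAP OE livers had 250.4, 181.6 and 186.2 CPM with ethanol and 326.0, 355.3 and 337.7 CPM with pair-feeding (difference -0.73 ± 0.19, adjusted p = 0.0578). In control livers it stood at 286.6, 405.8 and 375.8 CPM with ethanol and at 444.0, 532.1 and 471.4 CPM with pair-feeding (difference -0.45 ± 0.19, adjusted p = 0.215). Of the 3 differences only that in Yap KO livers was called. The 5 libraries with Xist above Ddx3y also had the highest Ehhadh, at 471.4 to 691.5 CPM, against at most 444.0 CPM in the others. The part of these genes of the sex chromosomes was not tested separately from that of ethanol. Ethanol-fed YAP OE livers were the lowest group of all, with each library below each ethanol-fed control library, and that difference was not called (-0.79 ± 0.19, adjusted p = 0.133).

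Acaa1b, the peroxisomal thiolase, was the member called with ethanol in YAP OE livers. It had 2321, 1070 and 1183 CPM in ethanol-fed YAP OE livers, against 4561, 4535 and 3626 CPM in pair-fed ones. The ranges were far apart, and the log2 difference was -1.56 ± 0.31 (adjusted p = 0.0182). The call rested on all 3 pair-fed YAP OE libraries: without replicate 1, whose Yap1 was at the control level, the difference was -1.50 with an adjusted p of 0.0802. It was also lost without any other of those libraries, without replicate 2 or 3 of ethanol-fed YAP OE, and without the filter on low genes. In Yap KO livers Acaa1b had 2588, 1902 and 2606 CPM with ethanol and 1743, 2481 and 3591 CPM with pair-feeding, and in control livers 1402, 2109 and 2046 CPM with ethanol and 3089, 1793 and 2071 CPM with pair-feeding. Both pairs overlapped, with 95% intervals of the log2 difference of -0.73 to 0.55 in Yap KO and -0.95 to 0.33 in control livers. The coding sequences of Acaa1b and Acaa1a are 96.5% identical (1231 of 1275 aligned bases), so how reads were shared between them is uncertain. Acaa1a differed by -0.40 ± 0.21 in the same YAP OE comparison (adjusted p = 0.408).

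Acot3, the peroxisomal thioesterase, varied most, with 11.8 times between its highest and lowest group means. It had 9.71, 6.49 and 18.3 CPM in ethanol-fed Yap KO livers, against 103.6, 147.6 and 155.7 CPM in pair-fed ones. The highest ethanol-fed library was far below the lowest pair-fed one, and the log2 difference was -3.54 ± 0.46 (adjusted p = 0.000175). In control livers Acot3 had 9.62, 43.5 and 41.6 CPM with ethanol and 53.4, 49.4 and 81.9 CPM with pair-feeding, ranges that lay apart (difference -1.17 ± 0.46, adjusted p = 0.182). In YAP OE livers it was low on both diets, at 19.7, 16.8 and 8.61 CPM with ethanol and 19.7, 9.74 and 12.3 CPM with pair-feeding (difference 0.09 ± 0.46, 95% interval -0.87 to 1.04). Pair-fed Yap KO, pair-fed control and ethanol-fed control followed each other at the top without overlap of their ranges, and ethanol-fed control overlapped the 3 groups below it. Acot3 shares 85.8% of its coding bases with Acot5 and 84.0% and 84.3% with Acot1 and Acot2, which were not analysed here.

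Vnn1 ranged narrowly in ethanol-fed Yap KO livers, at 44.0, 46.8 and 49.1 CPM, against 44.1, 144.9 and 172.4 CPM in pair-fed ones. Replicate 1 of pair-fed Yap KO was as low as the ethanol-fed libraries, and the difference of -1.13 ± 0.40 was not called (adjusted p = 0.0787). It was called without that library (-1.74, adjusted p = 0.00406). YAP OE livers had 111.6, 120.5 and 78.5 CPM with ethanol and 146.7, 146.1 and 97.5 CPM with pair-feeding, and control livers 60.0, 123.8 and 110.0 CPM with ethanol and 78.2, 45.4 and 115.3 CPM with pair-feeding. The diets overlapped in both, and control livers gave the only positive ethanol difference for a member other than Acot3 in YAP OE livers (0.33 ± 0.40, adjusted p = 0.722).

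In Yap KO livers the calls of Acot3, Ehhadh and Ppara held in 16 of 17 other settings. They were lost once the fit held a term for Xist above Ddx3y, which left differences of -3.29 (adjusted p = 0.24), -1.02 (adjusted p = 0.503) and -0.94 (adjusted p = 0.681). In that fit 0 of 11720 genes were called in this comparison. The term can be estimated only from the 3 pair-fed control libraries, and the cause of the lost calls was not tested. Marker sums of 2 cell types also differed between the diets there. The 4 hepatocyte markers summed to 44380 to 48500 CPM in ethanol-fed Yap KO livers, against 55600 to 77880 CPM in pair-fed ones. The 6 markers of Kupffer cells and macrophages, all with reads, summed to 139.5 to 177.7 CPM, against 394.0 to 469.0 CPM. Their part in these results was not tested. In YAP OE livers these 2 sums overlapped between the diets (36690 to 41970 CPM with ethanol and 36850 to 49370 CPM with pair-feeding for hepatocyte markers, 310.5 to 341.6 and 226.6 to 473.7 CPM for Kupffer cell markers). The 5 neutrophil markers, of which Ly6g had no read, were apart there, with 3.07 to 20.4 CPM in ethanol-fed and 0.946 to 1.74 CPM in pair-fed YAP OE livers. In control livers the 5 markers of sinusoidal endothelium were apart, with 273.5 to 289.1 CPM in ethanol-fed and 208.6 to 264.9 CPM in pair-fed livers. Their part was not tested either.

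**Figure D2:**
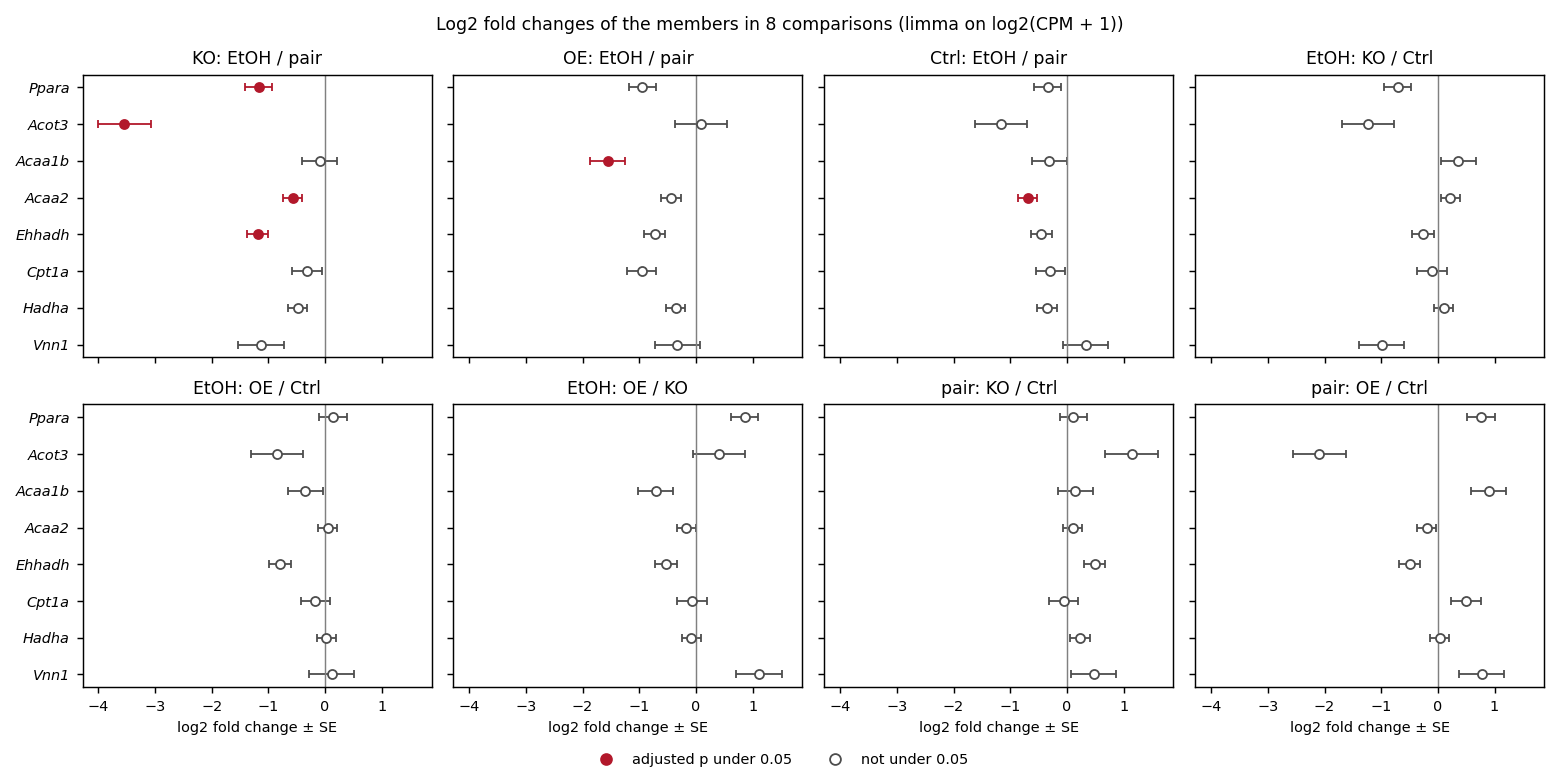
Log2 differences (points) with SE (bars) of the 8 members in 8 comparisons, the group named before the slash over the group after it; filled red points had an adjusted p under 0.05. Filled points are 4 in Yap KO, 1 in YAP OE and 1 in control livers, all below 0 and all with ethanol over pair-feeding.

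With the ethanol diet held constant, 0 of 8 members were called by limma between YAP OE and Yap KO livers (1.88% of all genes), between Yap KO and control livers (0.0171%) or between YAP OE and control livers (0.102%). edgeR on the recovered reads also called 0 in each. At an unadjusted p under 0.05 limma had 4, 3 and 1 of the 8, beside 1804, 978 and 1036 of all 11720 genes. Every one of these 9 libraries had Ddx3y above Xist. Ppara and Vnn1 were higher in each ethanol-fed YAP OE library than in each ethanol-fed Yap KO library (21.4% of all genes were apart in either direction), by 0.86 ± 0.24 (adjusted p = 0.0779) and 1.11 ± 0.40 (adjusted p = 0.174). A limma fit of the 13 libraries with Ddx3y above Xist called both differences (adjusted p = 0.0497 for Ppara and 0.0314 for Vnn1). The compared libraries were the same in that fit. Only the estimate of the spread and the adjustment changed, so it is not separate evidence. The same 2 genes were lower in each ethanol-fed Yap KO library than in each ethanol-fed control library (13.4% of all genes apart), by -0.71 ± 0.24 (adjusted p = 0.446) and -0.99 ± 0.40 (adjusted p = 0.537). Between ethanol-fed YAP OE and control livers only the range of Ehhadh was apart (15.0% of all genes). The 2 comparisons with Yap KO share its 3 libraries, so their values are not separate evidence. The summed Kupffer cell markers were 310.5 to 341.6 CPM in YAP OE, 139.5 to 177.7 CPM in Yap KO and 241.8 to 444.0 CPM in control livers on ethanol. The summed hepatocyte markers were apart in all 3 groups, at 36690 to 41970 CPM in YAP OE, 44380 to 48500 CPM in Yap KO and 49090 to 63480 CPM in control livers. The part of both marker lists in these differences was not tested.

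Under pair-feeding the members' differences between YAP OE and control livers had mixed signs, and 0 of 8 were called. In each pair-fed YAP OE library the levels of Ppara, Acaa1b and Cpt1a were above and those of Acot3, Ehhadh and Acaa2 below all pair-fed control libraries, which makes 6 of 8 members with ranges apart beside 13.8% of all genes. The differences were 0.76 ± 0.24 for Ppara (adjusted p = 0.324), 0.90 ± 0.31 for Acaa1b (adjusted p = 0.36) and 0.50 ± 0.26 for Cpt1a (adjusted p = 0.635). They were -2.09 ± 0.46 for Acot3 (adjusted p = 0.0827), -0.50 ± 0.19 for Ehhadh (adjusted p = 0.441) and -0.20 ± 0.17 for Acaa2 (adjusted p = 0.802). The 95% intervals of Cpt1a (-0.05 to 1.05) and Acaa2 (-0.56 to 0.17) included 0. limma called 0 of 8 members (0.145% of all genes) and edgeR 0. At an unadjusted p under 0.05 limma had 4 of 8, beside 991 of all 11720 genes. Without replicate 1 of pair-fed YAP OE the 6 differences kept their signs, with 0.79, 0.85 and 0.59 for Ppara, Acaa1b and Cpt1a and -2.35, -0.47 and -0.25 for Acot3, Ehhadh and Acaa2. Against the single pair-fed control library with Ddx3y above Xist they were 0.91, 0.45 and 0.24, and -1.92, -0.39 and -0.15; that library alone stands for its group there and is assumed to vary like the others.

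In pair-fed Yap KO livers Acot3 and Ehhadh were higher in each library than in each pair-fed control library (7.06% of all genes apart), by 1.14 ± 0.46 and 0.49 ± 0.19, and neither was called (adjusted p = 0.999 for each). limma called 0 of 8 members there (0.00853% of all genes) and edgeR 0. At an unadjusted p under 0.05 limma had 2 of 8, beside 367 of all 11720 genes. Ppara differed by 0.11 ± 0.24, with overlap, and the 95% interval ran from -0.40 to 0.63. Acot3 and Ehhadh thus had the same order under pair-feeding, Yap KO above control above YAP OE. The means of Acaa2 had this order too (1177, 1094 and 959.6 CPM), with overlap of Yap KO and control. Ppara, Acaa1b, Cpt1a, Hadha and Vnn1 did not share it. No step of this order was called, and the 2 comparisons share the pair-fed control libraries. Xist was above Ddx3y in all pair-fed Yap KO libraries, in replicates 2 and 3 of pair-fed control and in no pair-fed YAP OE library. Genotype and these genes of the sex chromosomes therefore cannot be told apart between pair-fed Yap KO and YAP OE livers.

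Whether the ethanol difference itself differed between genotypes was tested by interaction, and no gene was called in either test (0.0% of 11720 genes with Yap KO and 0.0% with YAP OE, by limma; 666 and 847 genes at an unadjusted p under 0.05; 0 and 0 by edgeR). Of the members 4 and 1 had an unadjusted p under 0.05. The Acot3 interaction with Yap KO was -2.37 (95% interval -3.73 to -1.02, adjusted p = 0.761), and the Acaa1b interaction with YAP OE was -1.25 (95% interval -2.15 to -0.35, adjusted p = 0.501). A member called in 1 genotype and not in another is therefore not shown to differ between them.

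The rest of the pathway was read from 8 lists with 88 further genes, of which 84 were tested. In Yap KO livers 5 of these 84 were called higher and 16 lower with ethanol, in YAP OE livers 0 and 4, and in control livers 1 and 4. Of all genes 9.9%, 1.15% and 2.7% were called in these comparisons. With the term for Xist above Ddx3y limma called 0 of the 84 in Yap KO livers and 1 in control livers. In Yap KO livers 7 of them had an unadjusted p under 0.05 in that fit, beside 850 of all 11720 genes. There edgeR without that term called 19. Members included, all 14 tested genes of mitochondrial beta-oxidation had a negative ethanol difference in each genotype. In Yap KO, YAP OE and control livers 7, 0 and 2 were called. The list's medians were -0.56, -0.42 and -0.36, beside -0.05, -0.07 and -0.09 over all genes. The share of all genes with a negative difference was not counted. With TMM factors the list's medians were -0.50, -0.33 and -0.26, and all 14 were still negative in each. Quantile normalization left 13 of 14 negative in Yap KO livers and 14 in the others. Hadh, the mitochondrial 3-hydroxyacyl-CoA dehydrogenase, had 340.9, 300.4 and 358.4 CPM in ethanol-fed Yap KO livers, against 587.6, 776.3 and 630.9 CPM in pair-fed ones (-0.99 ± 0.18, adjusted p = 0.00257). In control livers Hadh had 264.7, 327.1 and 361.9 CPM with ethanol and 504.6, 579.4 and 600.9 CPM with pair-feeding (-0.83 ± 0.18, adjusted p = 0.0181). Both differences left the diets fully apart. Acadl, a long-chain acyl-CoA dehydrogenase, fell by 0.68 ± 0.14 in Yap KO livers (difference -0.68, adjusted p = 0.00614).

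Of the 16 tested peroxisomal genes 12, 14 and 13 had negative ethanol differences in Yap KO, YAP OE and control livers. The list's medians were -0.36, -0.4 and -0.25, beside -0.05, -0.07 and -0.09 over all genes. Called lower were 3 in Yap KO, 1 in YAP OE and 0 in control livers. Of all genes 9.9%, 1.15% and 2.7% were called in either direction. In control livers 3 had an unadjusted p under 0.05 in limma, beside 2120 of all 11720 genes, and edgeR called 0. Abcd2, a peroxisomal importer of very long-chain acyl groups, had 9.34, 9.65 and 11.1 CPM in ethanol-fed Yap KO livers, against 32.3, 60.0 and 67.4 CPM in pair-fed ones (-2.24 ± 0.38, adjusted p = 0.00146). Called higher with ethanol in Yap KO livers were Acox2, the branched-chain oxidase that also serves bile acid synthesis (1.44 ± 0.27, adjusted p = 0.00321), and Scp2, of the sterol carrier protein (1.04 ± 0.33, adjusted p = 0.048). Acox2 stood at 498.5, 575.0 and 337.6 CPM with ethanol there, against 228.5, 150.6 and 139.5 CPM with pair-feeding, with no overlap. Pair-fed control livers had 534.9 CPM of Acox2 in replicate 1, with Ddx3y above Xist. Replicates 2 and 3, with Xist above Ddx3y, had 317.7 and 244.0 CPM. Ethanol and these genes of the sex chromosomes cannot be told apart in Yap KO livers, and their part in the Acox2 difference was not tested.

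**Figure D3:**
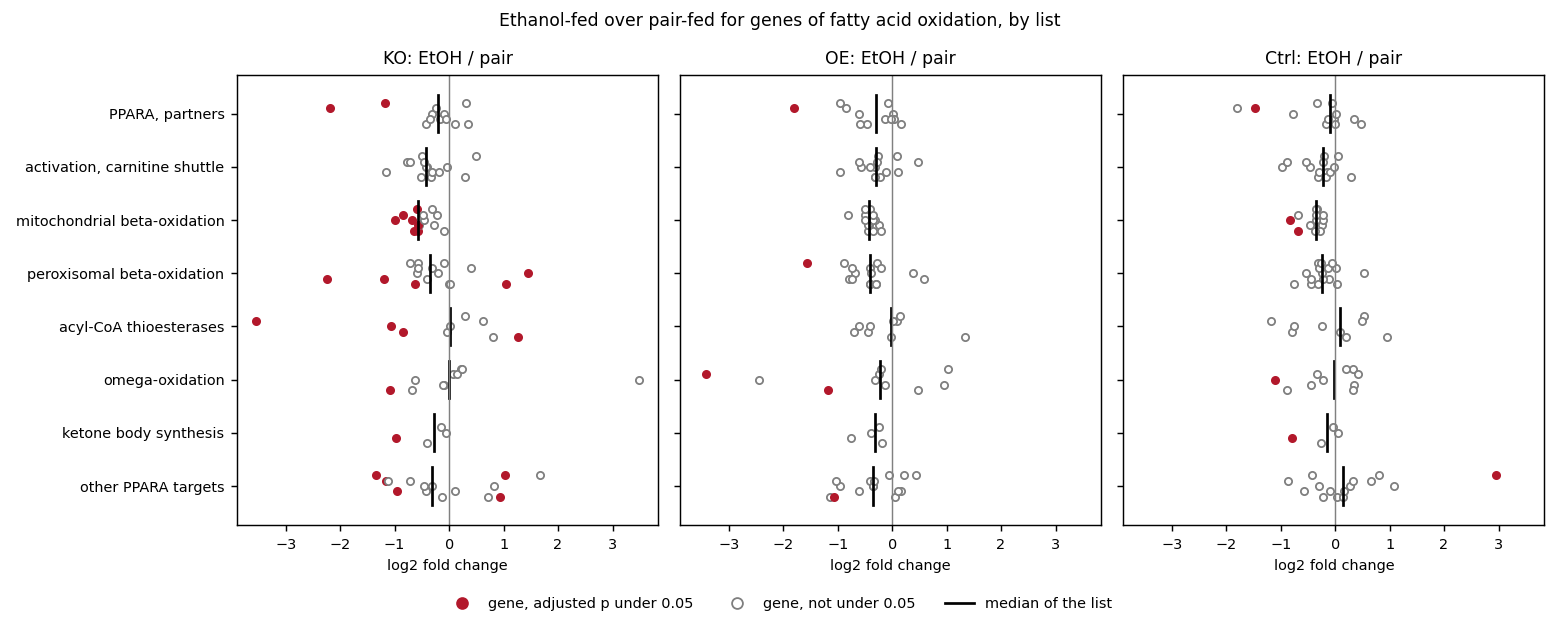
Log2 difference of ethanol-fed over pair-fed livers for each tested gene of the 8 lists (points, members included) in Yap KO, YAP OE and control livers, with the median of each list (black line); red points had an adjusted p under 0.05. The mitochondrial beta-oxidation list lies wholly below 0 in all 3 panels, and the thioesterases and omega-oxidation genes lie on both sides.

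Of the 9 tested thioesterases 3 were called lower and 1 higher with ethanol in Yap KO livers, where 9.9% of all genes were called. Acot13 was lower (-1.06 ± 0.23, adjusted p = 0.00728), beside Acot3 and Acot7 (-0.84 ± 0.24, adjusted p = 0.0306). Acot7 was named after its values were seen. Acot6 was higher while staying below 8 CPM in each of the 6 Yap KO libraries (1.27 ± 0.39, adjusted p = 0.0435). Each library with Xist above Ddx3y had more Acot13 than any other library, of which the highest had 95.1 CPM. Pair-fed control replicate 1, with Ddx3y above Xist, had 61.3 CPM. Ethanol and these genes of the sex chromosomes cannot be told apart in Yap KO livers. Their part in the Acot13 difference was not tested. The median of the 9 tested thioesterases was 0.01. In ketone body synthesis, Bdh1, which makes 3-hydroxybutyrate, was lower with ethanol in Yap KO livers (-0.97 ± 0.20, adjusted p = 0.00455) and in control livers (-0.80 ± 0.20, adjusted p = 0.0323) and differed by -0.75 ± 0.20 in YAP OE livers (adjusted p = 0.0607). Carnitine shuttle and activation genes gave 0 calls of 14 in each genotype by limma. At an unadjusted p under 0.05 there were 3, 2 and 3 in Yap KO, YAP OE and control livers, beside 3058, 1704 and 2120 of all 11720 genes.

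Among the coactivators, Ppargc1b, which docks on nuclear receptors and drives oxidative genes, had 3.79, 4.97 and 2.76 CPM in ethanol-fed YAP OE livers, against 15.3, 14.3 and 17.2 CPM in pair-fed ones (-1.80 ± 0.26, adjusted p = 0.00289). In control livers it had 2.49, 3.09 and 4.51 CPM with ethanol and 11.6, 13.9 and 8.03 CPM with pair-feeding (-1.47 ± 0.26, adjusted p = 0.00766). In Yap KO livers the diets overlapped, at 8.98, 5.57 and 9.07 CPM with ethanol and 10.3, 9.40 and 8.19 CPM with pair-feeding (-0.24 ± 0.26, adjusted p = 0.612), and no interaction was called. Plin5, a lipid droplet protein that ties droplets to mitochondria, was called in opposite directions: higher with ethanol in Yap KO livers (0.93 ± 0.23, adjusted p = 0.016) and lower in YAP OE livers (-1.07 ± 0.23, adjusted p = 0.0305). No interaction, each against control livers, was called for Plin5 either. Ethanol cannot be told apart from Xist and Ddx3y in Yap KO livers. With a term for Xist above Ddx3y 0 further pathway genes were called there, so the Plin5 call in Yap KO livers was lost. With ethanol it had 67.2, 59.9 and 56.2 CPM in YAP OE livers, against 113.6, 143.1 and 188.4 CPM in Yap KO livers, and Plin5 was the 1 pathway gene called between genotypes (-1.24 ± 0.23, adjusted p = 0.00958). Plin2, the general droplet coat protein, was higher with ethanol in Yap KO livers (1.02 ± 0.28, adjusted p = 0.0265), with the same limit as Plin5 there. Fgf21, a hepatic hormone induced by PPARA in fasting, had 40.8, 50.02 and 69.9 CPM in ethanol-fed control livers, against 4.38, 4.20 and 10.7 CPM in pair-fed ones (2.95 ± 0.78, adjusted p = 0.0475), and was the 1 gene of the lists called higher there.

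The omega-hydroxylases Cyp4a10 and Cyp4a14, strong PPARA targets in mouse liver, were not called in any comparison. In pair-fed YAP OE livers, where Ppara had its highest values, Cyp4a14 was at its lowest, with 700.9, 405.2 and 376.8 CPM, against 1500, 1166 and 1053 CPM in pair-fed control livers (-1.37 ± 0.29, adjusted p = 0.0677). Cyp4a10 had 571.4, 336.2 and 700.9 CPM, against 1438, 777.2 and 967.7 CPM (-1.0 ± 0.39, adjusted p = 0.456). The 2 groups were apart for both genes. With ethanol over pair-feeding in YAP OE livers the differences were 1.03 ± 0.29 for Cyp4a14 (adjusted p = 0.0817) and 0.95 ± 0.39 for Cyp4a10 (adjusted p = 0.253). Cyp4a12b, another hydroxylase, was called lower there (-3.41 ± 0.68, adjusted p = 0.0183), with 1.44, 2.21 and 0.172 CPM in ethanol-fed and 19.7, 18.6 and 26.0 CPM in pair-fed YAP OE livers. Aldh3a2, the fatty aldehyde dehydrogenase, was lower with ethanol in Yap KO livers (-1.08 ± 0.26, adjusted p = 0.0143) and in YAP OE livers (-1.17 ± 0.26, adjusted p = 0.0353).

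Across the 18 libraries the members did not form a single block. Acaa2 and Hadha followed each other most closely (Pearson r = 0.93, and 0.89 for deviations from the group means), and Acot3 and Ehhadh had r = 0.86. Ppara had r = 0.74 with Cpt1a and 0.72 with Vnn1, but 0.24 with Acot3 and 0.26 with Ehhadh. Cpt1a and Acot3 had r = 0.03. These are descriptions over log2(CPM + 1) in 18 libraries that share the group differences and library totals, and no test was made. Among the genes most like Ppara over the libraries, of 8449 with a mean of at least 5 CPM, were Adi1 (r = 0.90), Pcbp4 and Tef (r = 0.86 each) and 1600014C10Rik (r = 0.85). Those most like the mean z-score of the other 7 members were Mospd2 (r = 0.91) and Atp5sl, Gsto1, Aldh3a2 and Pink1 (r = 0.89 each).

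**Figure D4:**
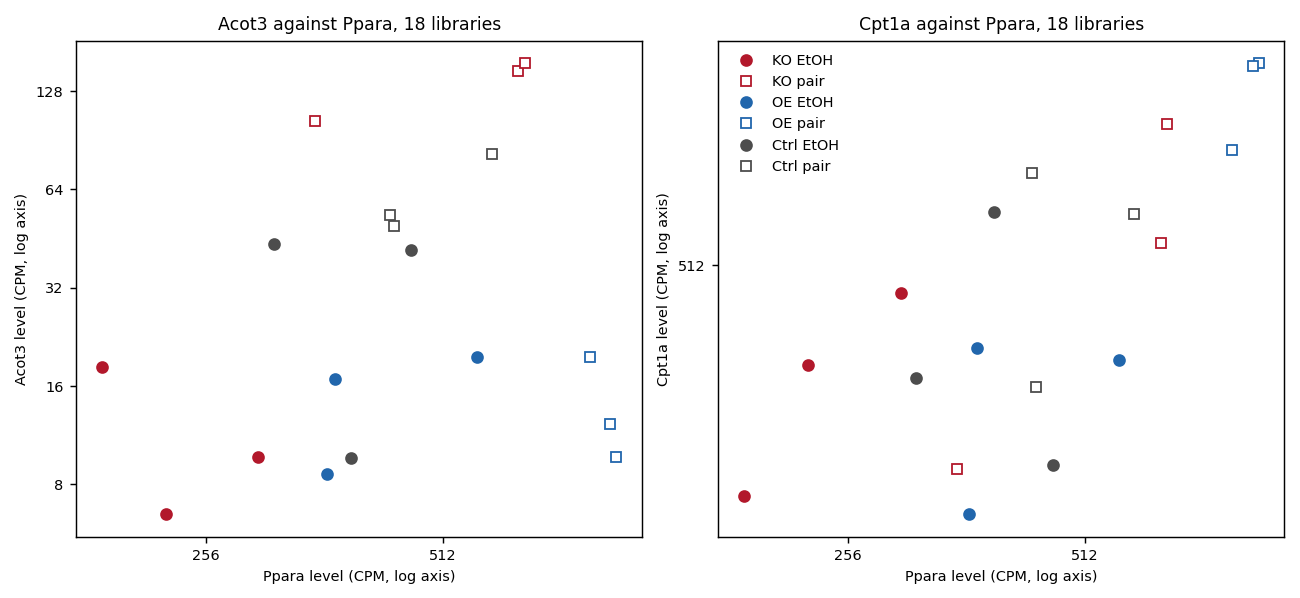
Level of Acot3 (left) and Cpt1a (right) against Ppara in CPM on log axes, 1 point per library; filled circles are ethanol-fed, open squares pair-fed, in Yap KO (red), YAP OE (blue) and control (grey) livers. The pair-fed YAP OE libraries stand at the highest Ppara and among the highest Cpt1a levels but among the low Acot3 values, and the pair-fed Yap KO libraries at the highest Acot3.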

How the data were processed

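Liver RNA of 18 libraries was measured with the Ion AmpliSeq mouse transcriptome panel, per the labels' protocols. The authors deposited 1 table of CPM for 23930 genes and log2 values per library made with ampliSeqRNA 5.10.1.2, per the file headers. The deposited log2 values equal log2(CPM + 1) of the table within 2e-06. Aligner, genome build and amplicon positions of the panel were not given in the sources used here. In each library 100.0% of CPM values were whole multiples of 1 read within 0.02 reads, so whole reads could be recovered.

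The 11720 genes that reached 1 CPM in 3 or more libraries were fitted with limma 3.58.1 in R 4.3.3 (lmFit, eBayes with trend, log2(CPM + 1), 1 mean for each of the 6 groups over all 18 libraries). Tests were two-sided, with Benjamini-Hochberg adjustment over the genes of a comparison. The 10 comparisons were ethanol over pair-feeding in each genotype, genotypes within a diet, and 2 interactions. Further pathway genes came from 8 lists, of which at most 6 called genes per direction and comparison are named beside a fixed set of known PPARA targets and close relatives of members. Some genes that this rule covers are not reported here. The members, lists, rule and alternatives were chosen with earlier results of these data known.

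Alternatives were no filter or a minimum of 10 CPM, pseudocounts of 0.1 and 10, TMM factors, quantile normalization, edgeR 4.0.16 (quasi-likelihood) on the recovered reads (1264, 134 and 285 genes called with ethanol in Yap KO, YAP OE and control livers), blocks for replicate number and barcode range, a term for Xist above Ddx3y, the 13 libraries with Ddx3y above Xist alone, the compared libraries alone, and leaving out each library. Same-numbered libraries deviated from their group means with correlations of -0.27 to 0.28, over 0.1 in 6 of 45 pairs. These values show no clear pairing by number and cannot exclude one. On simulated data for ethanol in control livers (11720 genes) limma found 41% of the genes changed 2-fold and 92% of those changed 4-fold, with 6 false calls. Promoters are RefSeq's, searched for 6 of 8 members, and coding identities come from GENCODE M21 transcripts.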

Additional observations from a re-analysis of the deposited data

How the results depend on the processing

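Scaling set the balance of calls over all genes: ethanol in Yap KO livers gave 481 higher and 679 lower genes, against 672 and 577 with TMM factors, in YAP OE livers 47 and 88, against 77 and 50, and in control livers 120 and 196, against 168 and 122. No scaling moved the median of all genes by more than 0.1 on the log2 scale, and the members kept their signs in the 3 ethanol comparisons.

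Called members in Yap KO livers (4) were 0 once a sex chromosome term was fitted, and other pathway genes (21) were 0. In YAP OE livers the members called with ethanol (1) were 0 without a filter, 3 in libraries with Ddx3y above Xist alone and 4 in the compared libraries alone. The other pathway genes there (4) were 1 without a filter and with edgeR, 2 with TMM factors, and 7 both in libraries with Ddx3y above Xist alone and in the compared libraries alone. In control livers the member called (1) was 0 without a filter, with TMM factors, edgeR, the barcode block or the sex chromosome term, in libraries with Ddx3y above Xist alone and in the compared libraries alone. The other pathway genes there (5) were 3 without a filter, with quantile normalization and with the barcode block, 2 with TMM factors, edgeR and the compared libraries alone, and 1 with the sex chromosome term and in libraries with Ddx3y above Xist alone. Between YAP OE and Yap KO livers on ethanol, members called (0) were 2 in libraries with Ddx3y above Xist alone and 1 in the compared libraries alone, and other pathway genes (1) were 2 with a 10 CPM minimum, pseudocount 10, TMM factors, quantile normalization, edgeR, the replicate block and the sex chromosome term, 4 in libraries with Ddx3y above Xist alone and 6 in the compared libraries alone. Pseudocount 10 gave 1 pathway gene between YAP OE and control livers under pair-feeding, against 0. The comparisons of pair-fed Yap KO libraries cannot be made in libraries with Ddx3y above Xist alone. The causes of these shifts were not tested.

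Leaving out each library in turn gave 3 to 6 called members and 11 to 22 other pathway genes in Yap KO livers, 0 to 3 and 1 to 6 in YAP OE livers, 0 and 1 to 5 in control livers, 0 and 1 to 2 between YAP OE and Yap KO livers on ethanol, 0 and 0 to 2 between YAP OE and control livers under pair-feeding, and 0 and 0 to 1 in the YAP OE interaction. These counts stayed at 0 in the other comparisons. All sign changes were of uncalled values between -0.17 and 0.33. With ethanol, Acaa1b ran from -0.35 to 0.17 in Yap KO, Acot3 from -0.13 to 0.42 in YAP OE and Vnn1 from -0.02 to 0.64 in control livers. Between ethanol-fed Yap KO and control livers Cpt1a ran from -0.27 to 0.11. Between ethanol-fed YAP OE and control livers the ranges were -0.06 to 0.28 (Ppara), -0.08 to 0.18 (Acaa2), -0.34 to 0.04 (Cpt1a), -0.12 to 0.09 (Hadha) and -0.19 to 0.32 (Vnn1), and between ethanol-fed YAP OE and Yap KO livers -0.24 to 0.09 (Cpt1a). Between pair-fed Yap KO and control livers they were -0.04 to 0.40 (Ppara), -0.12 to 0.40 (Acaa1b), -0.02 to 0.18 (Acaa2) and -0.30 to 0.23 (Cpt1a), and between pair-fed YAP OE and control livers -0.04 to 0.13 (Hadha). The interactions ran from -0.04 to 0.48 (Acaa1b) and -0.33 to 0.20 (Cpt1a) with Yap KO and from -0.15 to 0.06 (Hadha) with YAP OE. Hadha between ethanol-fed YAP OE and control livers turned to -0.05 with quantile normalization and -0.02 with the barcode block. With the sex chromosome term Cpt1a between pair-fed Yap KO and control livers turned to 0.07 and the Acaa1b interaction with Yap KO to -0.01.

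With the replicate number as a block, 1184, 138 and 310 genes were called with ethanol in Yap KO, YAP OE and control livers, against 1160, 135 and 316 without it, and 3, 1 and 1 members. Acaa2 in Yap KO livers was the member call lost under the block. For 8 of 18 libraries the mean correlation with libraries of other groups was highest for those of their own number. Between ethanol-fed YAP OE and control livers 4 genes were called with the block and 12 without it, and 22 in libraries with Ddx3y above Xist alone. The sex chromosome term left 0 and 23 of 1160 and 316 genes called with ethanol in Yap KO and control livers, and libraries with Ddx3y above Xist alone left 21 in control livers. Between pair-fed YAP OE and control livers edgeR called 29 genes against 17, and the sex chromosome term left 1.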
